A study of Saccharomyces cerevisiae with 14 samples.

Results

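The genes described here are 36 general stress genes and enzymes of trehalose and glycogen metabolism of the budding yeast Saccharomyces cerevisiae, chosen by symbol in the array annotation from a list of Msn2/Msn4-type stress genes and storage carbohydrate enzymes. They are 36 of 5548 named genes, and all 36 had a value on all 14 arrays. The rule that picks them uses symbols and no measured value, but the list was chosen with earlier results of these data known. The study compared strains carrying forms of TAF1, a scaffold subunit of TFIID that helps load RNA polymerase II at promoters, on arrays of PCR products that were hybridised with 2 labelled polyA RNA samples at once. Strain yjdi363 served as the reference on every array. A strain's own RNA carried Cy5 on its array 1 and Cy3 on its array 2, which gave 7 groups of 2 arrays.

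The groups were FHT-WT1 (strain yjdi353, whose label names the wild type), DT1 (yjdi355), TF1 (yjdi357), HT4 (yjdi359), PB1 (yjdi361), null (yjdi381) and a homotypic pair with the reference in both channels. The labels do not explain the codes or give the genotypes, and no domain of TAF1 is assigned to a strain here. According to the labels, every culture, the reference included, was grown without leucine on 3% raffinose to an OD600 of about 0.7, received 2% galactose for 30 min at 25 °C to induce the TAF1 forms, and was then held at 37 °C for 45 min. Galactose and heat are therefore in both channels. No untreated array was analysed here, so a strain's own response to either cannot be told apart from other differences from the reference. The labels name no separate cultures for the 2 arrays of a group, so the p-values rest on array spread alone, possibly technical.

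Msn2 and Msn4 are related zinc finger activators that stay in the cytoplasm under protein kinase A and TOR signalling, enter the nucleus on stress or poor carbon supply, and bind the stress response element upstream of many genes. Their targets include catalase, small heat shock and hydrophilic proteins, and the enzymes that make trehalose, a protectant disaccharide, and glycogen, the storage polymer. Yeast also induces the enzymes that break down both carbohydrates under the same conditions, so that synthesis and degradation genes often move together.

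Values are log2 ratios of strain over reference after the median of the 5535 tested genes was set to 0 on each array. Differences between groups are log2 differences ± SE from 1 limma fit over all 5535 genes, with a term for dye orientation and n = 2 arrays per group. A gene is said to have risen or fallen where its two-sided Benjamini-Hochberg adjusted p, taken over all 5535 genes, was under 0.05. The deposited table does not state which channel is the numerator. It was read as strain over reference because TAF1 then lay low in null (-3.52 and -3.46 on arrays 1 and 2), and every direction given here rests on that reading. TAF1 lay at -0.06 and -0.63 in FHT-WT1, and between -0.15 and -1.06 on the arrays of DT1, TF1, HT4 and PB1, where it was not called against FHT-WT1 (limma, adjusted p between 0.347 and 0.755). On each array 6935 to 6971 features had a value. The SD over all genes was 0.178 and 0.226 on the FHT-WT1 arrays, 0.164 and 0.167 on the homotypic arrays, and 0.314 to 0.445 on the others. The 2 FHT-WT1 arrays did not correlate across genes (r = -0.0059), while those of the other strains did (r = 0.509 to 0.662), and across genes points are not independent. All comparisons with FHT-WT1 share those 2 arrays. A ratio taken from a whole culture also cannot tell fewer expressing cells from less RNA per cell.

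The 36 genes lay above the array median on most strain arrays. Their median was 0.36 and 0.11 on the 2 arrays of DT1, 0.61 and 0.27 in TF1, 0.92 and 0.36 in HT4, 0.63 and 0.30 in PB1 and 0.58 and 0.15 in null. In FHT-WT1 it was 0.14 and 0.03. Array 1 was the higher of the pair in every one of these groups. The homotypic pair, in which both channels held the same strain, had medians of 0.15 and -0.21.

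**Figure D1:**
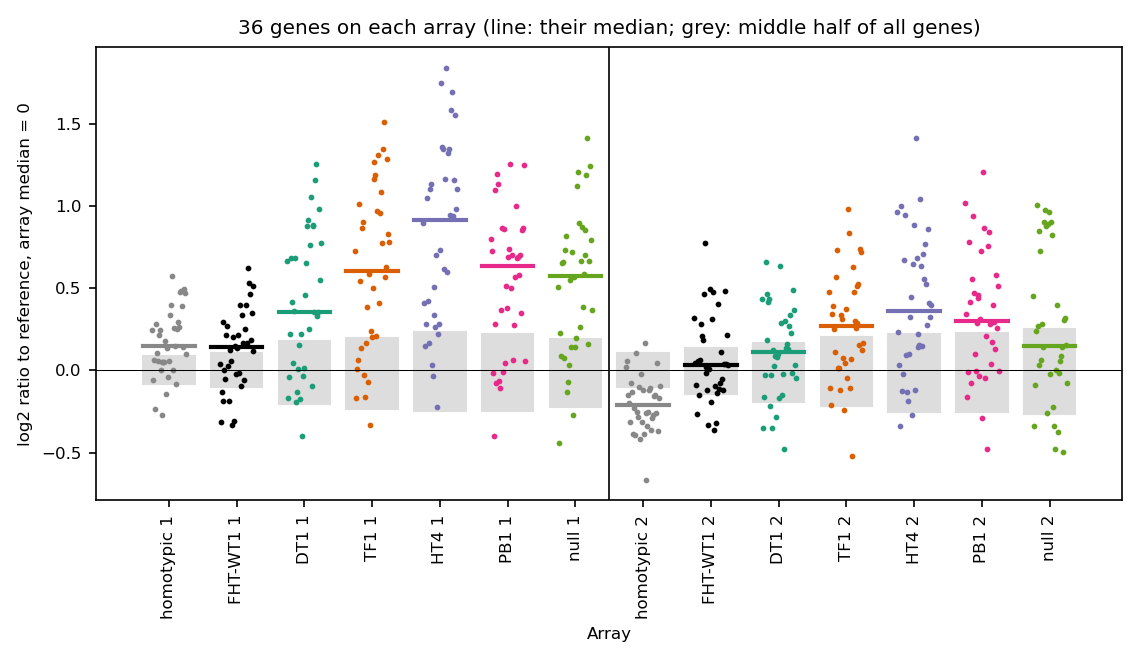
Log2 ratio to the reference (y axis, array median 0) of the 36 genes (points) on each of the 14 arrays (x axis, first arrays left of the black line and second arrays right of it). Coloured lines are the medians of the 36 genes and grey boxes the interquartile range of all tested genes. The medians run from -0.21 on homotypic array 2 to 0.92 on HT4 array 1.

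HT4 had the most called genes of the 36. In HT4, 19 of 36 rose against FHT-WT1 and 0 fell, where 4.90% of all tested genes rose and 6.81% fell. The largest differences were in GRE1, a hydrophilic stress protein, at 1.43 ± 0.26 (2.69-fold; limma, Benjamini-Hochberg adjusted p = 0.00622), and CTT1, the cytosolic catalase T, at 1.31 ± 0.17 (2.49-fold; limma, adjusted p = 0.00166). The median difference was 0.50, against -0.01 over all genes. Both HT4 arrays lay above both FHT-WT1 arrays for 22 of the 36, against 21.8% of all genes. HT4 array 1 was above FHT-WT1 array 1 for 36 of 36 genes, and HT4 array 2 above FHT-WT1 array 2 for 31.

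PB1 came next, with 10 of 36 higher and 0 lower, against 2.71% and 4.64% of all genes. NTH1, the neutral trehalase, showed the smallest adjusted p (0.80 ± 0.12; limma, adjusted p = 0.00307), and the genes of both activators were among the 10. The median was 0.35 against -0.01, and both PB1 arrays lay above both FHT-WT1 arrays for 19 of 36 genes, against 19.5% of all genes.

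In TF1, 5 of 36 rose and 0 fell, against 1.10% and 2.62% of all genes. These were CTT1, NTH1, TFS1, ALD3 and MSC1. The median of the 36 was 0.335 and that of all genes -0.01. For 18 of 36 genes both TF1 arrays lay above both FHT-WT1 arrays, against 19.4% of all genes.

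In null, where TAF1 RNA was lowest, 5 of 36 rose and 0 fell, against 1.90% and 4.12% of all genes. By role, PGM2, GSY2 and GLC3 belong to glycogen synthesis, NTH1 to trehalose breakdown and CTT1 to the protective proteins. The median was 0.28 against -0.01. Both null arrays lay above both FHT-WT1 arrays for 14 of 36 genes, against 18.2% of all genes.

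In DT1, limma called 0 of 36 in either direction, against 0.199% of all genes higher and 0.705% lower, while 13 of the 36 had an unadjusted p under 0.05. GRE1 (0.66 ± 0.26; limma, adjusted p = 0.216) and the glycogen synthase gene GSY1 (-0.62 ± 0.22; limma, adjusted p = 0.189) had the largest differences in each direction. The median was 0.16 against -0.01, and 12 of 36 genes had both DT1 arrays above both FHT-WT1 arrays, against 19.6% of all genes.

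In the mean of the 5 strains against FHT-WT1, 15 of 36 rose, where 4.48% of all genes rose. Of the 36 genes, 23 rose in at least 1 strain, where 6.79% of all tested genes did, 12 of them in 1 strain, 8 in 2, 1 in 3 (PGM2) and 2 in 4 (NTH1 and CTT1). The other 13 were called in none of the 5 strains: RIM15, XBP1, TPS2, TPS3, ATH1, GLG1, GSY1, GAC1, GPH1, GDB1, HSP12, SIP18 and GRE3.

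**Figure D2:**
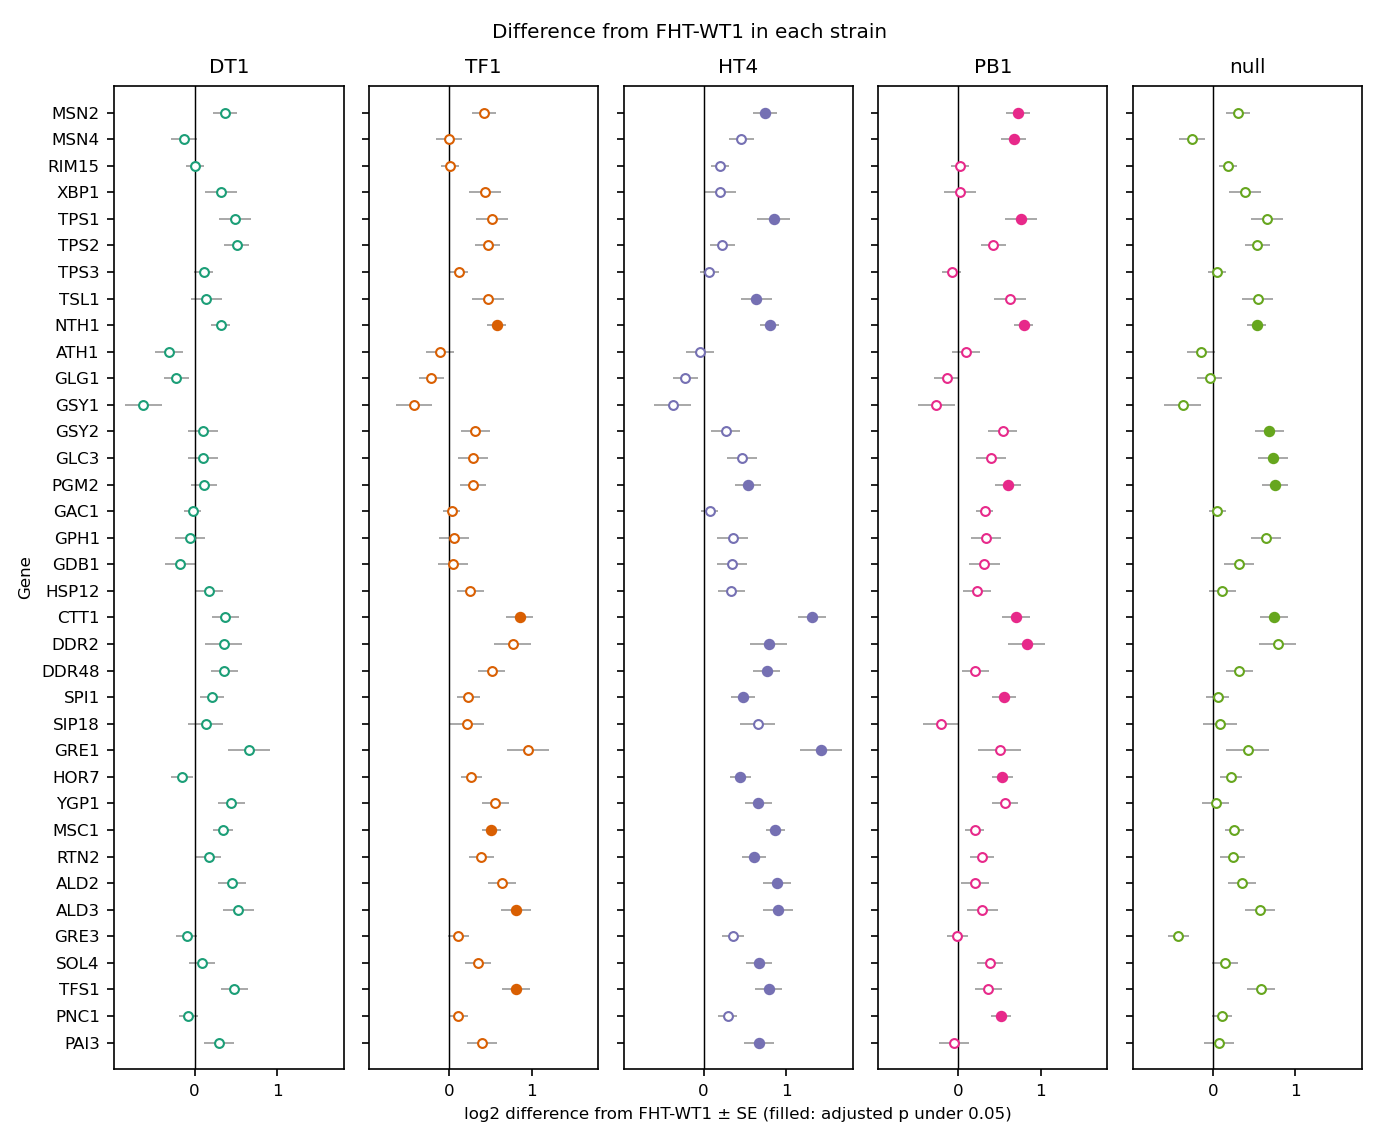
Log2 difference from FHT-WT1 (x axis) of each of the 36 genes (y axis) in the 5 strains, with bars of 1 SE from limma and filled circles for an adjusted p under 0.05. HT4 holds 19 filled circles, PB1 10, TF1 and null 5 each and DT1 0.

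The 57 calls of the 36 genes in all comparisons depended on how arrays were scaled and on single arrays. After scaling arrays to a common spread or quantile normalization 0 of the 57 were called, with the arrays as deposited 10, and without the dye term 6, and no called difference changed sign in these fits. Across the 14 fits that left out 1 array each, 4 calls against FHT-WT1 held every time: CTT1, MSC1 and NTH1 in HT4, and NTH1 in PB1. Without FHT-WT1 array 1 the count fell to 5 in HT4, 1 in PB1, 0 in TF1 and 0 in null. Without FHT-WT1 array 2 it was 17, 8, 2 and 1. The HT4 count was 4 without its own array 1 and 10 without its array 2, and the PB1 count was 4 and 2 without PB1 arrays 1 and 2. The TF1 count was 0 without either TF1 array and 3 without either DT1 array. The null count was 7 and 0 without null arrays 1 and 2, 3 without either DT1 array, 1 without either TF1 array and 8 without either HT4 array. The PB1 count was 6 without any 1 array of DT1 or TF1.

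**Figure D3:**
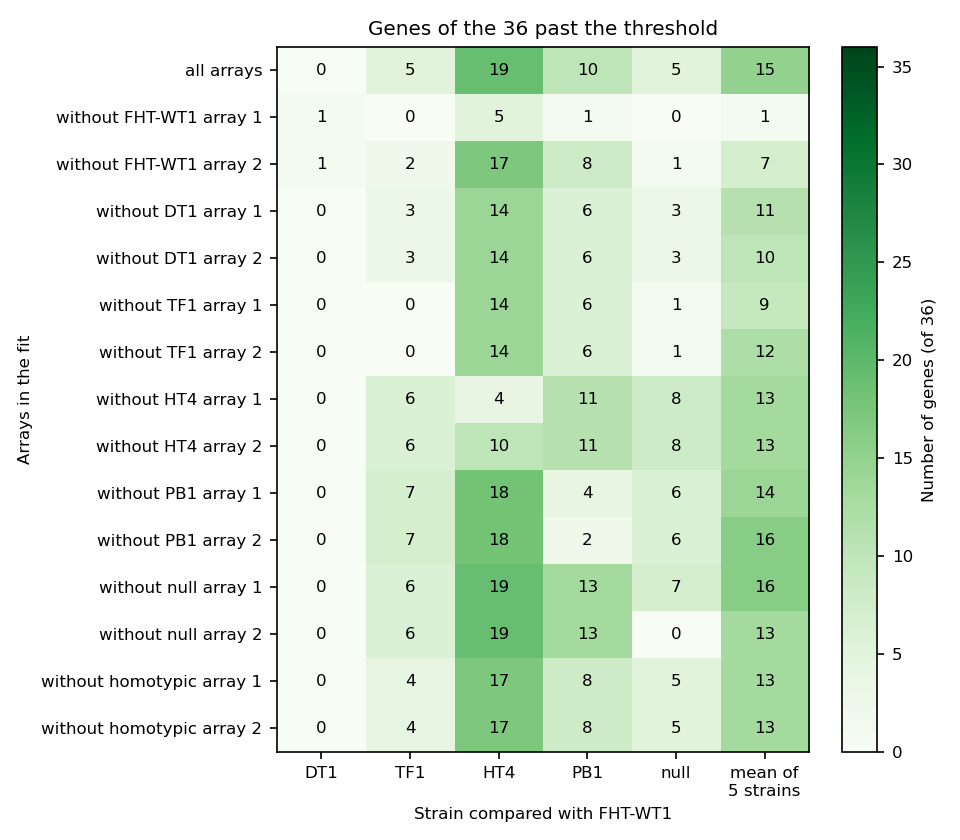
Number of the 36 genes past the threshold (printed in each cell and shaded) for each strain against FHT-WT1 and for the mean of the 5 strains (x axis), with all arrays and with 1 array left out (y axis). The HT4 count lies between 4 and 19 and the PB1 count between 1 and 13.

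Among the regulators, the 2 activator genes gave different patterns. MSN2 lay at 0.04 and 0.32 on arrays 1 and 2 of FHT-WT1, 0.66 and 0.44 in DT1, 0.73 and 0.47 in TF1, 0.89 and 0.96 in HT4, 0.80 and 1.02 in PB1, 0.51 and 0.45 in null, and 0.25 and 0.02 in the homotypic pair. All 10 arrays of the 5 strains lay above both FHT-WT1 arrays. MSN2 rose in HT4 (0.75 ± 0.15; limma, adjusted p = 0.00867) and in PB1 (0.73 ± 0.15; limma, adjusted p = 0.0142), and was not called in DT1, TF1 or null (0.37, 0.42 and 0.30).

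MSN4 encodes the stress-inducible partner of Msn2 and stood high in HT4 and PB1. Its arrays read -0.32 and 0.05 in FHT-WT1, -0.17 and -0.35 in DT1, -0.17 and -0.10 in TF1, 0.41 and 0.24 in HT4, 0.73 and 0.34 in PB1, -0.44 and -0.34 in null, and -0.06 and 0.06 in the homotypic pair. The 4 arrays of HT4 and PB1 lay above the other 10. MSN4 rose in PB1 (0.67 ± 0.16; limma, adjusted p = 0.0259), and its difference in HT4 was 0.46 ± 0.16 (limma, adjusted p = 0.0783). RIM15, a kinase gene of the nutrient signalling pathway that prepares cells for quiescence, and XBP1, a stress-induced repressor gene, were not called, with differences of 0.01 to 0.20 and 0.02 to 0.43 over the 5 strains.

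Trehalose synthesis was led by TPS1, the synthase gene. TPS1 lay at 0.30 and 0.05 on arrays 1 and 2 of FHT-WT1, 0.68 and 0.66 in DT1, 1.01 and 0.39 in TF1, 1.05 and 0.9997 in HT4, 1.09 and 0.78 in PB1, 0.65 and 1.01 in null, and 0.28 and -0.31 in the homotypic pair. No strain array overlapped FHT-WT1. It rose in HT4 (0.85 ± 0.20; limma, adjusted p = 0.0176) and PB1 (0.76 ± 0.20; limma, adjusted p = 0.0371), with 0.65, 0.52 and 0.50 in null, TF1 and DT1. TSL1, a regulatory subunit of the complex, rose in HT4 (0.64 ± 0.19; limma, adjusted p = 0.048). TPS2, the phosphatase that completes the pathway, was called in none of the 5 strains singly (0.22 in HT4 to 0.54 in null) and rose in their mean (0.43 ± 0.12; limma, adjusted p = 0.0336). TPS3, the other regulatory subunit, had differences of -0.08 to 0.12.

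NTH1, like CTT1, was called in 4 strains. It encodes the neutral trehalase, the cytosolic enzyme that splits trehalose. Its arrays lay at 0.27 and 0.21 in FHT-WT1, 0.69 and 0.43 in DT1, 0.90 and 0.73 in TF1, 1.13 and 0.94 in HT4, 1.13 and 0.94 in PB1, 0.82 and 0.72 in null, and 0.25 and -0.23 in the homotypic pair. Every array of the 5 strains lay above both FHT-WT1 arrays and both homotypic arrays. NTH1 rose by 0.80 ± 0.12 in HT4 (limma, adjusted p = 0.00227) and in PB1, by 0.58 in TF1 (limma, adjusted p = 0.0222) and by 0.53 in null (limma, adjusted p = 0.0299), with 0.32 ± 0.12 in DT1 (limma, adjusted p = 0.189). ATH1, the acid trehalase gene, was not called, with differences of -0.31 to 0.10.

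Among the 6 glycogen synthesis genes, PGM2 rose in 3 strains. It encodes the main phosphoglucomutase, which also serves galactose use, and galactose was in both channels. PGM2 lay at 0.20 and -0.12 in FHT-WT1, 0.22 and 0.08 in DT1, 0.58 and 0.07 in TF1, 0.70 and 0.44 in HT4, 0.86 and 0.44 in PB1, 0.72 and 0.88 in null, and 0.18 and -0.41 in the homotypic pair. HT4, PB1 and null did not overlap FHT-WT1, while DT1 and TF1 did. The differences called were 0.76 ± 0.16 in null (limma, adjusted p = 0.0274), 0.61 in PB1 (limma, adjusted p = 0.0386) and 0.53 in HT4 (limma, adjusted p = 0.0483). In null, the branching enzyme gene GLC3 rose by 0.73 ± 0.18 (limma, adjusted p = 0.0382) and GSY2, the main glycogen synthase gene, by 0.69 ± 0.18 (limma, adjusted p = 0.0453). On null array 2 GLC3 and GSY2 read 0.97 and 0.90, against 0.14 and 0.55 on array 1. Both calls depended on single arrays of FHT-WT1, DT1 and TF1 as well as on null array 2. With all arrays, neither was called as deposited, with arrays centred on the mode or with a robust prior and trend.

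The remaining glycogen genes were called in no strain. GSY1, the other synthase gene, had a mean below FHT-WT1 in all 5 strains (-0.62 to -0.27), and its FHT-WT1 arrays read 0.12 and 0.78. On first arrays TF1, HT4 and PB1 read 0.17, 0.34 and 0.37, above FHT-WT1. DT1 and null read 0.01 and 0.03 there, below it. GLG1, a glycogenin primer gene, also had a mean below FHT-WT1 in all 5 (-0.22 to -0.03). Its FHT-WT1 arrays read -0.19 and 0.46, and on first arrays alone all 5 strains lay above FHT-WT1. GAC1, which targets a phosphatase to glycogen synthase, had differences of -0.02 to 0.32, the highest in PB1. For breakdown, the phosphorylase gene GPH1 had its largest difference in null (0.65; limma, adjusted p = 0.0588) and the debranching enzyme gene GDB1 lay between -0.18 and 0.34.

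Among the 11 protective proteins, 9 rose in HT4, 4 in PB1, 2 in TF1, 1 in null and 0 in DT1. Of all genes 4.90%, 2.71%, 1.10%, 1.90% and 0.199% rose in these strains. The 1 in null is CTT1 and is read as no result about this role. CTT1 read 0.22 and 0.31 on arrays 1 and 2 of FHT-WT1, 0.65 and 0.63 in DT1, 1.26 and 0.98 in TF1, 1.74 and 1.42 in HT4, 0.74 and 1.20 in PB1, 1.12 and 0.90 in null, and 0.34 and 0.17 in the homotypic pair. All 10 strain arrays exceeded the 4 FHT-WT1 and homotypic arrays, and both HT4 arrays exceeded the other 8. Beyond HT4, CTT1 rose by 0.86 in TF1 (limma, adjusted p = 0.0205), 0.75 in null (limma, adjusted p = 0.031) and 0.70 in PB1 (limma, adjusted p = 0.0289). In DT1 it differed by 0.38 ± 0.17 (limma, adjusted p = 0.28).

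GRE1 had its highest mean in HT4. Its values were 0.17 and -0.14 in FHT-WT1, 1.05 and 0.30 in DT1, 1.31 and 0.63 in TF1, 1.84 and 1.04 in HT4, 0.27 and 0.76 in PB1, 0.87 and 0.001 in null, and 0.15 and -0.12 in the homotypic pair. Null was the only one of the 5 strains whose arrays overlapped FHT-WT1. SIP18, its hydrophilin relative, was not called and showed 0.65 in HT4 (limma, adjusted p = 0.0657) and -0.21 in PB1. HSP12, a small heat shock protein that stabilises membranes, was also not called, with differences of 0.11 to 0.33.

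MSC1, a stress-induced gene for a mitochondrial protein, rose in HT4 (0.87 ± 0.12; limma, adjusted p = 0.00186) and TF1 (0.51 ± 0.12; limma, adjusted p = 0.0389). It read 0.40 and -0.08 on the FHT-WT1 arrays, 0.88 and 0.13 in DT1, 1.08 and 0.26 in TF1, 1.35 and 0.71 in HT4, 0.68 and 0.04 in PB1, 0.85 and -0.01 in null, and 0.29 and -0.29 in the homotypic pair. In HT4 alone of the 5 strains did both arrays lie above both FHT-WT1 arrays. DDR48, a DNA damage and heat responsive gene, rose in HT4 (0.77 ± 0.16; limma, adjusted p = 0.0133). It read 0.40 and -0.36 in FHT-WT1, 0.91 and -0.15 in DT1, 1.19 and -0.11 in TF1, 1.35 and 0.22 in HT4, 0.50 and -0.05 in PB1, 0.90 and -0.22 in null, and 0.57 and -0.66 in the homotypic pair. Array 1 was high and array 2 low in every group, and each strain overlapped FHT-WT1, and DDR48 was not called without the dye orientation term.

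DDR2 and HOR7 encode related small stress proteins, and both rose in HT4 and PB1. DDR2 lay at -0.02 and 0.48 in FHT-WT1, 0.88 and 0.29 in DT1, 1.16 and 0.83 in TF1, 1.36 and 0.68 in HT4, 1.25 and 0.86 in PB1, 1.21 and 0.82 in null, and 0.40 and -0.26 in the homotypic pair. DT1 overlapped FHT-WT1 and the other 4 strains did not. The DDR2 differences were 0.83 ± 0.22 in PB1 (limma, adjusted p = 0.0438) and 0.79 ± 0.22 in both HT4 (limma, adjusted p = 0.0397) and null, where it was not called (limma, adjusted p = 0.0588). HOR7 differed by 0.53 in PB1 (limma, adjusted p = 0.0313) and 0.44 in HT4 (limma, adjusted p = 0.0451).

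YGP1, a secreted cell wall glycoprotein gene, and RTN2, a reticulon gene of the endoplasmic reticulum, rose in HT4 by 0.66 ± 0.16 (limma, adjusted p = 0.0203) and 0.61 ± 0.15 (limma, adjusted p = 0.0209). YGP1 read 0.25 and -0.11 in FHT-WT1, 0.88 and 0.16 in DT1, 0.96 and 0.30 in TF1, 1.32 and 0.15 in HT4, 0.998 and 0.28 in PB1, 0.58 and -0.38 in null, and 0.25 and -0.36 in the homotypic pair, so HT4 overlapped FHT-WT1. RTN2 read 0.17 and 0.11 in FHT-WT1, 0.35 and 0.27 in DT1, 0.77 and 0.29 in TF1, 0.94 and 0.55 in HT4, 0.69 and 0.17 in PB1, 0.70 and 0.06 in null, and 0.26 and -0.27 in the homotypic pair. Only null overlapped FHT-WT1 for RTN2. SPI1, a weak acid induced cell wall protein gene, rose by 0.55 in PB1 (limma, adjusted p = 0.0366) and 0.48 in HT4 (limma, adjusted p = 0.0495).

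Among the 7 stress-induced enzymes and inhibitors, 5 rose in HT4, 2 in TF1, 1 in PB1 and 0 in DT1 and null. Of all genes 4.90%, 1.10%, 2.71%, 0.199% and 1.90% rose in these strains. The 1 in PB1 is PNC1 and is read as no result about this role. ALD2 and ALD3 are neighbouring genes for closely related cytosolic aldehyde dehydrogenases, and array products of such close relatives can bind each other's transcripts. ALD2 lay at 0.62 and -0.05 in FHT-WT1, 1.16 and 0.34 in DT1, 1.34 and 0.51 in TF1, 1.58 and 0.77 in HT4, 0.58 and 0.40 in PB1, 1.19 and 0.09 in null, and 0.48 and -0.16 in the homotypic pair. ALD3 lay at 0.53 and -0.12 in FHT-WT1, 1.25 and 0.22 in DT1, 1.51 and 0.52 in TF1, 1.69 and 0.53 in HT4, 0.70 and 0.29 in PB1, 1.41 and 0.14 in null, and 0.48 and -0.15 in the homotypic pair. Apart from ALD2 in HT4, the second array of each strain fell within the FHT-WT1 range for both genes. In HT4 ALD2 rose by 0.89 ± 0.17 (limma, adjusted p = 0.00799) and ALD3 by 0.90 ± 0.18 (limma, adjusted p = 0.0108), and ALD3 also rose in TF1 (0.81 ± 0.18; limma, adjusted p = 0.0376).

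TFS1, an inhibitor of the vacuolar carboxypeptidase Y, rose in TF1 (0.81 ± 0.17; limma, adjusted p = 0.0259) and HT4 (0.79 ± 0.17; limma, adjusted p = 0.0127). It read 0.35 and 0.04 in FHT-WT1, 0.98 and 0.37 in DT1, 1.29 and 0.72 in TF1, 1.55 and 0.41 in HT4, 0.86 and 0.25 in PB1, 1.24 and 0.32 in null, and 0.50 and -0.37 in the homotypic pair. PB1 and null overlapped FHT-WT1 and the other 3 strains did not. PAI3, the inhibitor of the vacuolar proteinase A, rose in HT4 (0.68 ± 0.18; limma, adjusted p = 0.0324).

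SOL4, a gene of the pentose phosphate pathway enzyme 6-phosphogluconolactonase, rose in HT4 (0.67 ± 0.16; limma, adjusted p = 0.0186). It read 0.18 and 0.48 in FHT-WT1, 0.36 and 0.49 in DT1, 0.63 and 0.74 in TF1, 1.16 and 0.86 in HT4, 0.85 and 0.58 in PB1, 0.66 and 0.30 in null, and 0.14 and 0.04 in the homotypic pair. DT1 and null overlapped FHT-WT1. PNC1, the nicotinamidase that recycles nicotinamide to NAD, rose in PB1 (0.52 ± 0.12; limma, adjusted p = 0.0262). It read 0.51 and 0.21 in FHT-WT1, 0.55 and 0.03 in DT1, 0.83 and 0.12 in TF1, 0.98 and 0.32 in HT4, 1.25 and 0.51 in PB1, 0.79 and 0.16 in null, and 0.47 and -0.17 in the homotypic pair, and the first array was the higher in every group. PB1 array 2 (0.5114) lay just below FHT-WT1 array 1 (0.5134), so PB1 overlapped FHT-WT1.

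GRE3, an aldose reductase gene, was called in no strain against FHT-WT1 and differed between strains. It read 0.46 and 0.04 in FHT-WT1, 0.33 and -0.02 in DT1, 0.57 and 0.16 in TF1, 0.94 and 0.28 in HT4, 0.35 and 0.13 in PB1, 0.16 and -0.50 in null, and 0.39 and -0.26 in the homotypic pair. Null lay lowest on both array numbers, with a difference from FHT-WT1 of -0.42 ± 0.13 (limma, adjusted p = 0.0763).

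**Figure D4:**
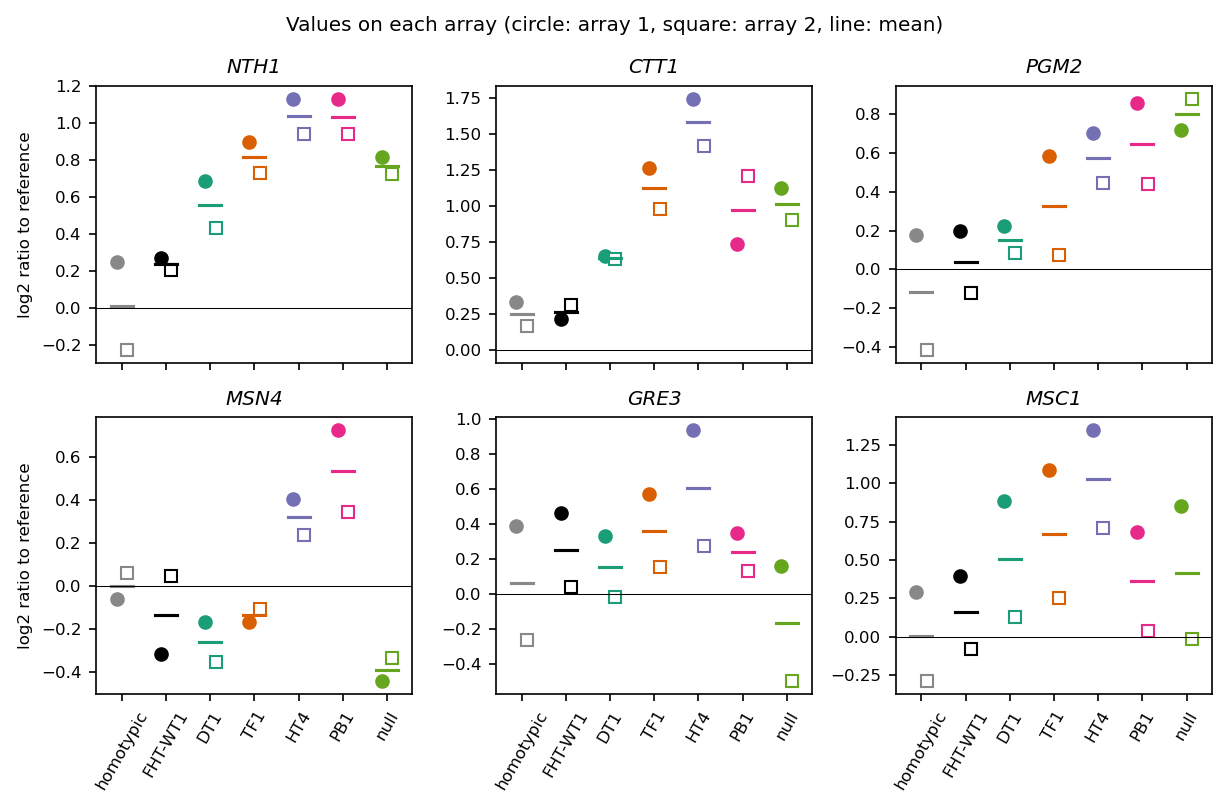
Log2 ratio to the reference (y axis, array median 0) of NTH1, CTT1, PGM2, MSN4, GRE3 and MSC1 in the 7 groups (x axis), with array 1 as a circle, array 2 as an open square and the mean as a line. These genes were called in 3 or more strains or between strains. The arrays of MSN4 in HT4 and PB1 sit between 0.24 and 0.73, above all others.

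The 5 strains were then compared with each other, which does not use the FHT-WT1 arrays as control. Against null, HT4 was higher for GRE3 (0.77 ± 0.13; limma, Benjamini-Hochberg adjusted p = 0.0271) and MSC1 (0.61 ± 0.12; limma, adjusted p = 0.0465), 2 of 36 genes against 0.488% of all genes. PB1 was higher than null for 1 of 36, MSN4 (0.93 ± 0.16; limma, adjusted p = 0.0172), against 0.542% of all genes. HT4 and null did not overlap for GRE3, nor PB1 and null for MSN4, while for MSC1 null array 1 lay above HT4 array 2. Limma called 0 of 36 in DT1 (0.0723% of all genes in either direction) and 0 in TF1 (0.0542%) against null, with 9 and 5 of the 36 at an unadjusted p under 0.05. A moderated F test for any difference among the 5 strains called 1 of 36, MSN4 (limma, adjusted p = 0.0456), against 0.614% of all genes, and 21 of the 36 had an unadjusted p under 0.05. The larger number of called genes in HT4 than in the other strains is therefore tested as a difference only against null, where 34 of the 36 did not pass. GRE3 was not called between HT4 and null without either HT4 array, null array 2 or any 1 array of DT1 or TF1, and MSC1 kept its call in 1 of 14 such fits, the one without null array 1. MSN4 between PB1 and null was not called without PB1 array 1 or either null array (0.71 to 0.99).

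Between FHT-WT1 and the homotypic pair limma called 0 of 36 genes and 0% of all genes, with 2 of the 36 at an unadjusted p under 0.05. With 2 arrays per group, this does not show that the groups are alike. FHT-WT1 lay above the homotypic pair for 29 of the 36, against 2874 of 5535 genes. The median difference of the 36 was 0.13 and turned to -0.12 with homotypic array 2 reversed. After quantile normalization 28 of all genes and 0 of the 36 were called, and after scaling to a common spread 8 and 0.

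**Figure D5:**
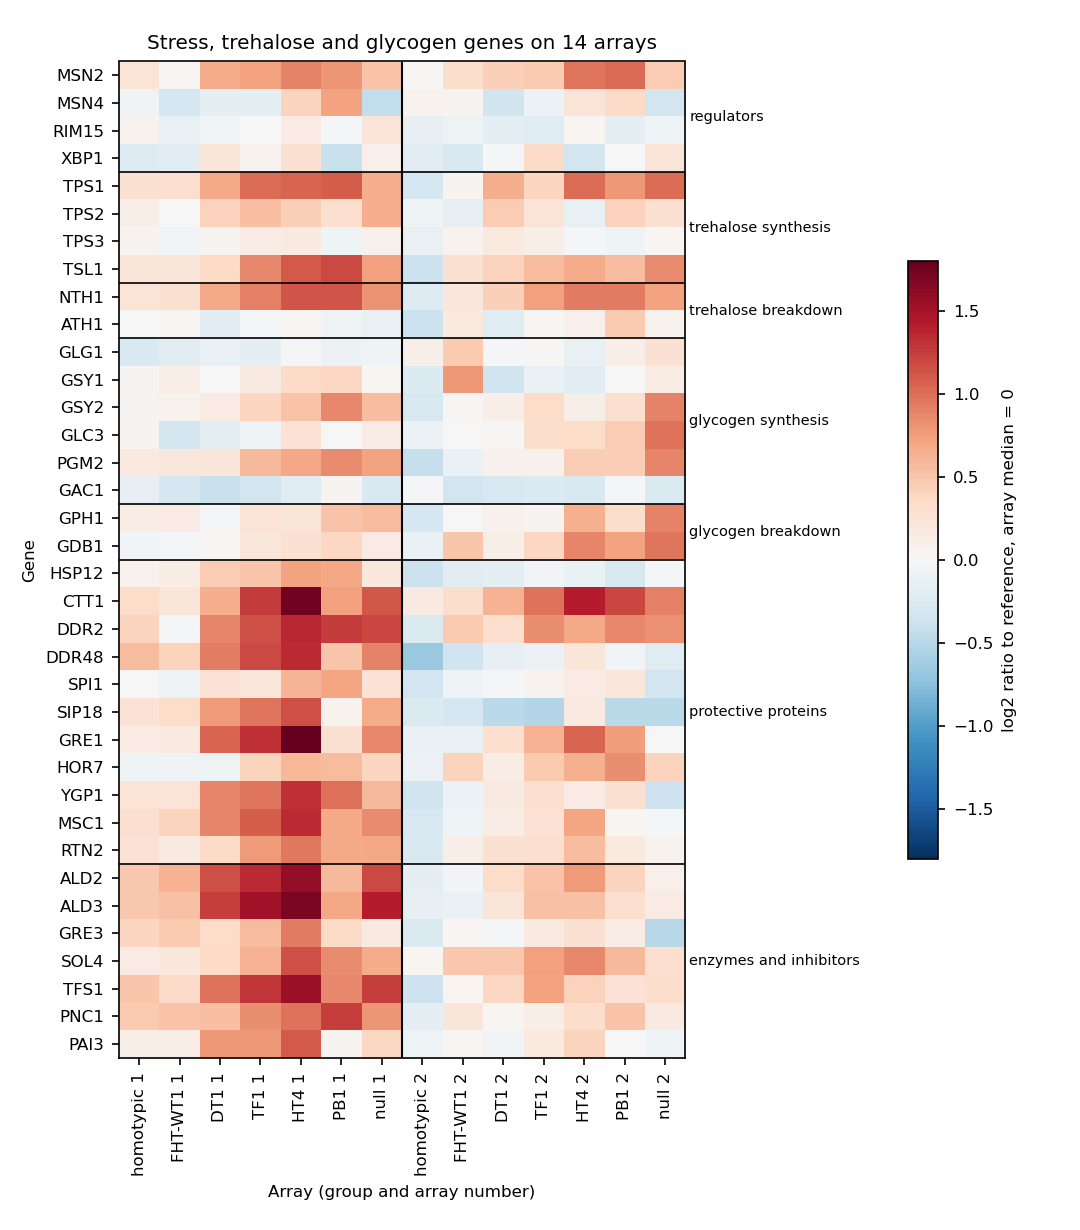
Log2 ratio to the reference (colour, red above and blue below the array median) of the 36 genes (rows, grouped by role) on the 14 arrays (columns, first arrays left of the black line). DDR48, SIP18, YGP1 and MSC1 are redder on first arrays than on second arrays in all 7 groups, while HOR7 is so only in the homotypic pair.

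The median difference of the 36 genes between array 1 and array 2 was positive in every group, though not for each role. Arrays 1 and 2 differ in dye orientation, and also in the numbers that start their titles. These are 25 to 28 on first arrays and 4 or 22 to 24 on second arrays, so the 2 cannot be told apart. In the homotypic pair 32 of 36 genes read higher on array 1 than on array 2, by a median of 0.37. In the 6 strain groups 22 to 30 of 36 did so, by medians of 0.06 to 0.42. Of all genes, 49.2% to 51.8% read higher on array 1 in the 7 groups. The lowest count, 22, was in FHT-WT1 (median 0.06) and in null (median 0.22). Those counts lie nearest the shares of all genes and are read as no result about the set. The fitted orientation term had a median of 0.21 for the 36 genes and 0.003 for all genes. It was 1.02 for DDR48, 0.94 for SIP18 and 0.88 for ALD3. By role, the median difference between arrays 1 and 2 of the homotypic pair was 0.63 for the stress-induced enzymes and inhibitors, 0.51 for the protective proteins, 0.43 for trehalose breakdown, 0.39 for trehalose synthesis, 0.26 for glycogen breakdown, 0.23 for glycogen synthesis and 0.08 for the regulators. Within first arrays alone the 36 genes lay above FHT-WT1 by a median of 0.72 in HT4, 0.46 in TF1, 0.43 in null, 0.38 in PB1 and 0.25 in DT1. Within second arrays alone these medians were 0.35, 0.18, 0.14, 0.30 and 0.09. In both orientations at once 31 genes lay above FHT-WT1 in HT4, 27 in TF1, 25 in PB1 and 22 in DT1 and in null, against 30.0% to 32.3% of all genes. How the ratio of homotypic array 2 was turned is not known.

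Several of the genes with a large orientation difference are neighbours. In the reference annotation (R64, used for gene order) ALD3 and ALD2 adjoin each other, and DDR48, PAI3 and SIP18 follow one another a short way on, with EAR1 and HOT1 between ALD2 and DDR48. All 5 read higher on array 1 than on array 2 in all 7 groups, as did 9 members elsewhere (NTH1, HSP12, SPI1, YGP1, MSC1, RTN2, GRE3, TFS1 and PNC1) and 13.7% of all genes. The fitted orientation term of the 5 ran from 0.42 for PAI3 to 1.02 for DDR48, and among members elsewhere it reached 0.74 in YGP1. EAR1, an adaptor for the ubiquitin ligase Rsp5 and no member of the 36, rose in PB1 (0.71; limma, adjusted p = 0.0169) and HT4 (0.63; limma, adjusted p = 0.0184). HOT1, which encodes an osmotic stress transcription factor, was called in no strain (0.008 to 0.21). EAR1 also read higher on array 1 than on array 2 in all 7 groups. HOT1 read lower on array 1 in FHT-WT1, HT4, PB1 and null and higher in DT1, TF1 and the homotypic pair. Both were looked up after the order of the members was seen.

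Genes around these 36 in the same pathways were followed as lists. Of 36 other Msn2/Msn4-type stress genes, 12 rose in HT4, 8 in PB1 (with 1, GND2, lower), 3 each in null and TF1, and 0 in DT1 by limma, where 9 had an unadjusted p under 0.05. Of all tested genes 4.90% rose in HT4, 2.71% in PB1, 1.90% in null, 1.10% in TF1 and 0.199% in DT1, and 4.64% fell in PB1. Their medians were 0.55 in HT4, 0.34 in PB1, 0.26 in null, 0.25 in TF1 and 0.09 in DT1. GPD1, the glycerol-3-phosphate dehydrogenase of the osmotic response, rose by 1.02 in null, 0.97 in HT4 and 0.91 in PB1 (limma, adjusted p = 0.0173, 0.00429 and 0.00839). PEP4, the vacuolar proteinase A that PAI3 inhibits, rose by 0.72 in HT4, 0.69 in TF1 and 0.54 in null (limma, adjusted p = 0.00398, 0.0126 and 0.0296).

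Of 17 other measured trehalose and glycogen genes, 3 rose in null, 3 in HT4, 1 in PB1 and 0 in TF1 and DT1 by limma, where 4 and 3 had an unadjusted p under 0.05. The shares of all genes are those just given, and 1 of 17 in PB1 is read as no result about this list. The glucokinase gene GLK1 rose in null, HT4 and PB1 (0.73, 0.71 and 0.70; limma, adjusted p = 0.0386, 0.028 and 0.0397). NTH2, the trehalase gene related to NTH1, rose in HT4 (0.54; limma, adjusted p = 0.0146). A list of signalling genes held 32 measured genes of protein kinase A, TOR, Snf1 and Msn2/Msn4 regulation, among them PHO85, PCL8 and PCL10. Its medians lay between 0.02 and 0.04 in the 5 strains. Limma called 1 higher and 2 lower in PB1, where 2.71% of all genes rose and 4.64% fell. It called 1 higher in null, where 1.90% of all genes rose. In DT1, TF1 and HT4 it called 0, with 4, 5 and 7 at an unadjusted p under 0.05. These counts lie near the shares of all genes and are read as no result about this list. In PB1 the cyclin gene PCL10, which acts on glycogen synthase through Pho85, rose (0.86; limma, adjusted p = 0.00833), and RAS1 and the kinase subunit gene TPK2 fell by 0.57 and 0.50 (limma, adjusted p = 0.0202 and 0.0286). In null the kinase gene YAK1 rose (0.50; limma, adjusted p = 0.0376).

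Mating type genes also differed from FHT-WT1. All 4 genes specific to alpha cells lay below FHT-WT1 in each of the 5 strains, with medians of -0.78 in null, -0.82 in DT1, -1.12 in TF1, -1.04 in HT4 and -1.33 in PB1. In these strains 2, 0, 3, 2 and 4 of them were called, where 4.12%, 0.705%, 2.62%, 6.81% and 4.64% of all genes fell. FHT-WT1 itself lay below the homotypic pair for these genes, by a median of -0.53. Both its arrays lay below both homotypic arrays for 4 of 4, against 804 of 5535 genes. Limma called 0 of the 4 there, with 3 at an unadjusted p under 0.05. Of 6 genes specific to a cells, limma called 0 in any of the 5 comparisons, with at most 1 at an unadjusted p under 0.05. A ratio gives no level, so it cannot be said which of these markers were near 0. The part of these mating type differences in the stress gene values was not tested.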

How the data were processed

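PolyA RNA was measured on 14 two-colour arrays in 7 groups of 2. The deposited table holds log2 ratios between channels. Per the series text, the authors normalised dye-swap data by the mode and corrected them with B. subtilis spikes. Of 7056 features, 5579 were named and gave 5548 genes (30 averaged from several features), 5543 of them matching R64 names. The 5535 genes with values on all arrays were tested and 13 left out. Each array was centred on its median. limma 3.58.1 in R 4.3.3 fitted 7 groups and a dye orientation term (lmFit, eBayes; 6 residual and 5.98 prior degrees of freedom; median SE 0.133), with Benjamini-Hochberg adjustment, and was tested on simulated data. The number of arrays limits the precision. Homotypic array 2 was taken as turned like other second arrays.

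The members and lists were chosen with earlier results of these data known. All 36 members were named; array values are given for the 16 with the smallest adjusted p among those called, and for PGM2 and GRE3, added after their values were seen. Alternatives are given at the end. A planned look at promoter motifs and paralog identity was not run, because no sequence was used here. Array number within a group is the dye orientation, so the orientation term acts as the replicate block. Numbers that start the array titles are also shared between some groups. They are 25 to 28 on first arrays and 4 or 22 to 24 on second arrays, so they cannot be told apart from dye orientation. The second arrays of FHT-WT1 and the homotypic pair carry 4, and those of the other strains 22 to 24. The meaning of these numbers is not stated, and they were tried as a random block (consensus correlation 0.2709).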

Additional observations from a re-analysis of the deposited data

Results flagged for a closer look

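A difference between strains, tested directly in the limma fit, singled out 3 of the 36 genes. GRE3, the aldose reductase gene, was higher in HT4 than in null by 0.77 (limma, Benjamini-Hochberg adjusted p = 0.0271) and was higher in 4 of 4 pairings of their arrays. MSC1 was higher in HT4 than in null by 0.61 (limma, adjusted p = 0.0465), in 3 of 4 pairings. MSN4 was higher in PB1 than in null by 0.93 (limma, adjusted p = 0.0172), in 4 of 4 pairings. MSN4 also differed among the 5 strains in the moderated F test, with a range of 0.93 between the highest and the lowest strain mean (limma, adjusted p = 0.0456).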

How the results depend on the processing

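Of the 57 calls of the 36 genes, 47 were kept with arrays centred on the mode, 48 without the homotypic pair, 48 with the title number as a random block, 55 with genes measured on at least 1 array of each group, 34 with a robust prior and trend, 32 with homotypic array 2 reversed, 10 as deposited, 6 with no replicate block (no dye orientation term) and 0 after scaling to a common median absolute deviation or quantile normalization, where limma also called only 23 and 4 of all genes in HT4 against 648. No call changed sign in any of these. Counts in null, TF1, HT4, PB1 and the mean of the 5 strains against FHT-WT1 (5, 5, 19, 10 and 15) were 0, 1, 2, 3 and 4 as deposited, 0 in each after either rescaling, 0, 0, 3, 0 and 3 without the block for dye orientation and 3, 2, 12, 6 and 8 with homotypic array 2 reversed. A robust prior gave 1 in null, 0 in TF1 and 4 in PB1. With the homotypic pair in place of FHT-WT1, chosen after seeing the data, the counts were 14, 16, 23, 16 and 23, with 4 in DT1, and 54 of 54 calls were kept. HT4 against null (2) gave 0 as deposited, after rescaling, without the block or with the array reversed, and 1 without the homotypic pair, with the robust prior or with the title number. PB1 against null (1) gave 0 after rescaling and without the block, the F test (1) gave 0 in those and with the mode, without the homotypic pair or with the array reversed, and DT1 against null (0) gave 2 as deposited. Leaving out 1 array gave 0 to 8 calls in null, 0 to 1 in DT1, 0 to 7 in TF1, 4 to 19 in HT4, 1 to 13 in PB1, 1 to 16 in the mean, 0 to 3 in DT1 against null, 0 to 2 in HT4 against null, 0 to 1 in PB1 against null, 0 to 5 in the F test, and 0 in FHT-WT1 against the homotypic pair and in TF1 against null. The mean of the 5 strains had 1 and 7 calls without FHT-WT1 arrays 1 and 2 and 9 without TF1 array 1. The cause of these moves was not tested. As deposited, the median gene lay at -0.21 against FHT-WT1 in HT4 and -0.17 in DT1, and the median SE was 0.2345. Signal over background was not analysed here.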
